A study of Homo sapiens with 15 samples.

Results

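GFRA2, SCNN1A, CLEC1A, KCNA5, FAT3, S100A4, PAMR1, FAM131B and CSDC2 are protein-coding genes with high mean counts in the libraries titled trex8168, in a study of CRISPR activation in HEK293FT cells. The 9 genes were found by symbol in the authors' deposited table, 1 row each, out of 11230 listed rows, of which 7447 are protein-coding. They were chosen from measured values: the deposited log2 fold change of trex8168 over control, by which they hold ranks 1 to 9 among the 1345 named protein-coding rows called at an adjusted p under 0.05 in that comparison. Their values in trex8168 are therefore a description, and no test is drawn from them. In membership, most of the 9 encode proteins known from the cell surface or the extracellular space. CSDC2, an RNA-binding protein with a cold shock domain, and FAM131B, a little characterised protein, are not known as either, so the 9 are treated here as the leading protein-coding rises of trex8168 and not as a functional class.

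HEK293FT is a fast-growing line derived from human embryonic kidney cells. The series has 15 polyA RNA libraries in 5 groups of 3, described by the labels as biological triplicates. Every group, control included, was transfected with dCas9-VP64 (a Cas9 that binds without cutting, fused to an activator), with MS2 + p65 + HSF1 (further activator parts) and with a pool of 5 guide RNAs, was put under puromycin at 2 ug/mL from 24 hours and was harvested at 48 hours. Guides of the control group were non-targeting. Those of the other groups lay 50 to 450 bp upstream of the start of a long non-coding RNA that is transiently expressed when cortical neurons differentiate. The groups are named by their library titles as trex0108 (sgRNA target label TrEx108), trex4039 (TrEx4039), trex5008 and trex8168. Titles and target labels are at odds for the last 2: libraries titled trex8168 carry the target label TrEx5008, and libraries titled trex5008 carry TrEx8168. The conflict was not settled, and "trex8168" below always means the library title. All groups come from 1 cell line, so nothing here speaks of neurons, and the mean of 3 libraries is the smallest unit given, with no SD and with depth unknown.

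Receptors, channels and adhesion proteins at the cell surface pass signals, ions and mechanical contact into a cell, and secreted proteins act on the matrix and on neighbouring cells. GFRA2 is the co-receptor through which the ligand neurturin reaches the receptor kinase RET. SCNN1A is the alpha subunit of the epithelial sodium channel, which takes up sodium in the kidney's collecting duct and in the airway. CLEC1A is a C-type lectin-like receptor known from endothelial and dendritic cells, and KCNA5 is a voltage-gated potassium channel best known from the heart's atria. FAT3 is a very large cadherin that shapes neurons in the retina. S100A4 is a small calcium-binding protein that interacts with non-muscle myosin and also occurs outside cells, and PAMR1 is a peptidase-like protein with CUB, EGF and sushi domains named for muscle regeneration.

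Promoter sequences were available for 4 of the 9 symbols in RefSeq's table for GRCh38.p14, in 5 promoters, with the other symbols being GFRA2, SCNN1A, CLEC1A, FAT3 and CSDC2. They are shown because these genes are all high in trex8168, while KCNA5 and FAM131B also rose in other groups. Each sequence is the 250 bases before the start site, 5′ to 3′ on the gene's strand, and capitals mark matches to TATAAA (the TATA box), CCAAT (the CCAAT box), GGGCGG (the GC box), TTCNNGAA (a heat shock element core) or TGANTCA (an AP-1 site) on either strand.
S100A4 promoter, chr1:153545807-153546056, strand -: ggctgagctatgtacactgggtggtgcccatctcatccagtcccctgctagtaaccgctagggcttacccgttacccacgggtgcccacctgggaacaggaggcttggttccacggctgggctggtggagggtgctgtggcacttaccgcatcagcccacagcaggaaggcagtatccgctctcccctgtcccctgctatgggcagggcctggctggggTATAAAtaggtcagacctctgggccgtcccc
KCNA5 promoter, chr12:5043629-5043878, strand +: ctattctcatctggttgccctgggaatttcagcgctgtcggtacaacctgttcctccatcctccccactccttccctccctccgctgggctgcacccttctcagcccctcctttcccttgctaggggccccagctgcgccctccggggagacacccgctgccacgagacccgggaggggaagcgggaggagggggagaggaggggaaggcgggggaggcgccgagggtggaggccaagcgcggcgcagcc
PAMR1 promoter, chr11:35530301-35530550, strand -: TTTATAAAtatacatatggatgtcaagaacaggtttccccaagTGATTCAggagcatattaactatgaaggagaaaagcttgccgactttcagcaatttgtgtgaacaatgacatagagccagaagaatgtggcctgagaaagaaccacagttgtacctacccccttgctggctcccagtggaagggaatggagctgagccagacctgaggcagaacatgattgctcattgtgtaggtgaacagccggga
FAM131B promoter, chr7:143362081-143362330, strand -: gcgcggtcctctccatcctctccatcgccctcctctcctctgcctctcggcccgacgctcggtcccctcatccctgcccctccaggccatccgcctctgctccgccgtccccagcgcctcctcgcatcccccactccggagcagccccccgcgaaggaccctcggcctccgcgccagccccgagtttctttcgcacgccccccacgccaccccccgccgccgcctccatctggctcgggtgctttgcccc
FAM131B promoter, chr7:143382305-143382554, strand -: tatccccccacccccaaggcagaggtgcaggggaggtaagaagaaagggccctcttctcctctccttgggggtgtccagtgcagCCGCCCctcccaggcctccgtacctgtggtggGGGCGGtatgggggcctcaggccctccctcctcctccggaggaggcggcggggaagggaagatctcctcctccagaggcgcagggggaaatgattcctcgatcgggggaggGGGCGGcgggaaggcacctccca
In the S100A4 promoter the TATA box begins 31 bases before the start site. PAMR1 holds overlapping matches to the TATA box and its reverse complement 248 and 250 bases before the start site, and an AP-1 match 207 bases before it. Of all 35116 promoters of this length in the table, 10.7% hold the TATA box and 6.57% hold the AP-1 pattern. The GC box was found in 1 of the 5 promoters, the FAM131B promoter whose interval starts at 143382305, where it matched at 166, 134 and 23 bases before the start site, against 42.6% of all promoters. The CCAAT box and the heat shock element core were in 0 of the 5, against 32.0% and 6.62% of all. The looser patterns CANNTG (the E-box) and CACCC, not capitalised, were each in 4 of 5 promoters, against 61.8% and 54.7% of all. Base composition set them apart from each other: GC content was 45.6% in PAMR1, 62.8% in S100A4, 68.8% in KCNA5 and 68.4% and 74% in the FAM131B promoters, with a median of 58% over the table. The PAMR1 window held 2 CpG, the S100A4 window 7, the KCNA5 window 15 and the FAM131B windows 11 and 26, against a median of 11. Of the motifs in capitals, none was found in all 4 genes.

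In trex8168 each of the 9 genes had its highest mean of the 5 groups, a pattern that the choice of genes favours. By the ratio of the authors' group means the 9 stood from 1.86-fold to 18.0-fold above control, with a median of 3.02-fold. The deposited log2 fold changes, which shrink changes resting on few counts, ran from 0.80 to 1.73 with a median of 1.10 in the authors' deposited table, while the median of all listed rows was 0.04. At an adjusted p under 0.05 the table calls 14.6% of rows with an adjusted p higher and 6.45% lower in this comparison. All 9 are among the higher ones by choice, so nothing is read from that count. Approximate standard errors (SE), recovered from fold change, adjusted p and rank, ran from 0.09 to 0.14 on the log2 scale. In bulk RNA, more cells of a type and more RNA per cell cannot be told apart.

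**Figure D1:**
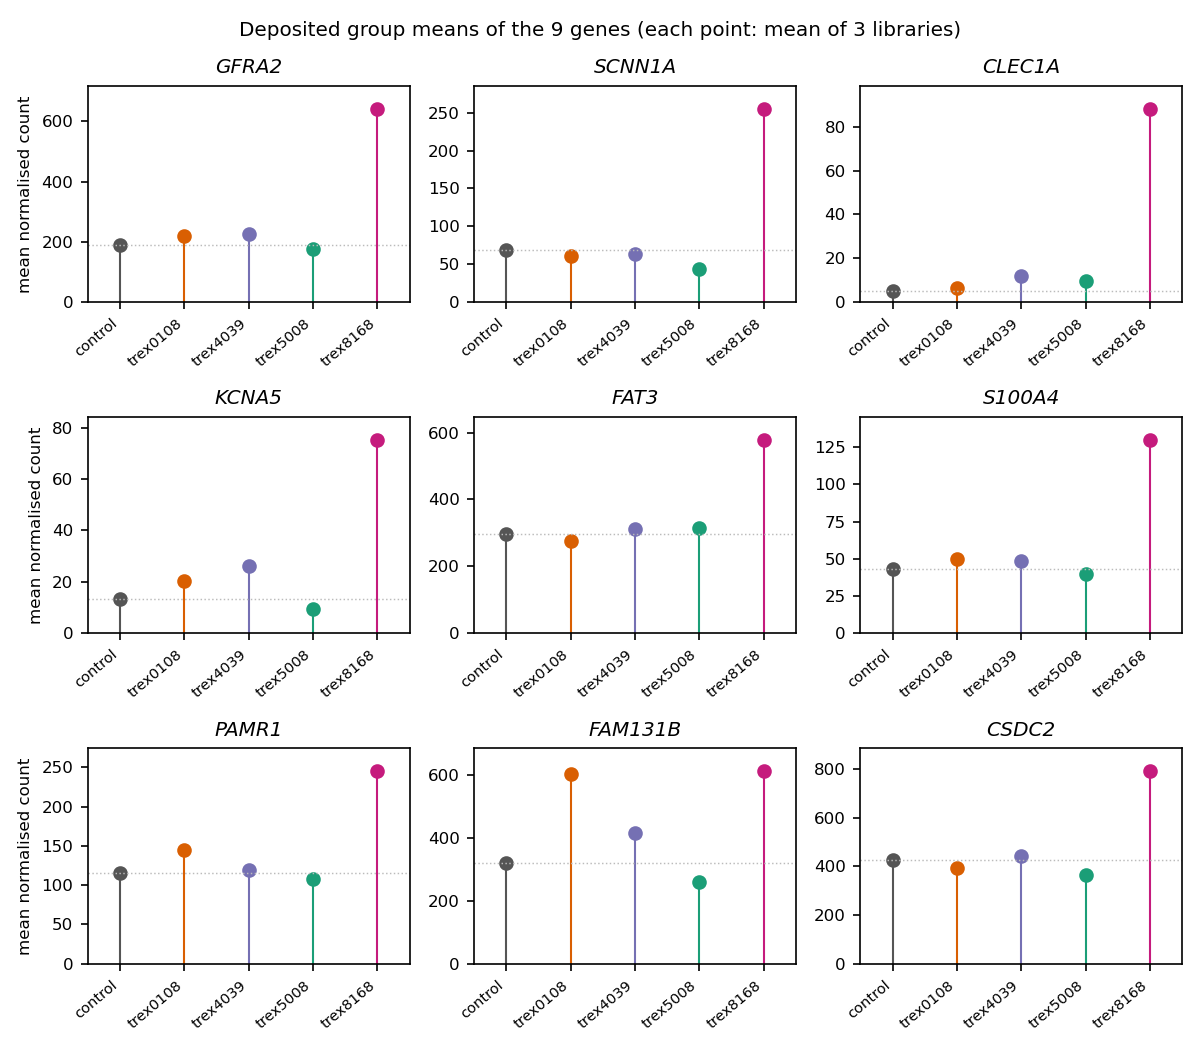
Mean normalised count (vertical axis, linear from 0, 1 scale per gene) of the 9 genes in the 5 groups, each point the authors' mean of 3 libraries, with the control mean dotted. The trex8168 point is the highest for every gene, and for FAM131B the trex0108 point is nearly level with it (605 and 613).

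Among the receptors, GFRA2 (XLOC_062860, chromosome 8, 21222612 to 21669850, hg19) had authors' means of 189.6 in control, 217 in trex0108, 224 in trex4039, 177 in trex5008 and 641 in trex8168. The first 4 groups lay within 1.27-fold of each other, and trex8168 stood 2.86-fold above the next group, trex4039. Its deposited log2 fold change in trex8168 was 1.53 (approximate SE 0.10) in the authors' deposited table. Against control it was not called in trex0108, trex4039 or trex5008 (adjusted p 0.862, 0.134 and 0.613 in the authors' deposited table), so the order of these groups and control is not resolved.

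CLEC1A (XLOC_014714, chromosome 12, 10217074 to 10264452) had low means outside trex8168. The authors' means were 4.90 in control, 6.49 in trex0108, 11.7 in trex4039, 9.33 in trex5008 and 88.1 in trex8168. That is 18.0-fold over control and 7.54-fold over trex4039, the widest gap to the next group among the 9. The value of 1.73 (approximate SE 0.14) that the authors' deposited table gives is far under the log2 ratio of the means, 4.17. It is also the only one of the 9 with its lowest mean in control. In the other 3 target groups its means were 133% to 239% of control, but none was called (adjusted p 0.122 to 0.999 in the authors' deposited table).

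FAT3 (XLOC_010461, chromosome 11, 91957287 to 92848531), the adhesion gene, was abundant and even across groups. Its authors' means were 295 in control, 276 in trex0108, 311 in trex4039, 314 in trex5008 and 578 in trex8168. The 4 lower groups spanned 1.136-fold, the narrowest range among the 9, and trex8168 lay 1.84-fold above the highest of them, trex5008. The deposited log2 fold change was 0.83 in trex8168 (approximate SE 0.10) and between -0.08 and 0.08 in the other comparisons in the authors' deposited table, with no call in those (adjusted p 0.628 to 0.999).

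SCNN1A (XLOC_014620, chromosome 12, 6455757 to 6486861), the sodium channel subunit, is the only one of the 9 whose next-highest group was control. The authors' means were 68.3 in control, 60.1 in trex0108, 63.4 in trex4039, 43.9 in trex5008 and 255 in trex8168. Thus trex8168 stood 3.73-fold above control, and the other target groups all lay below it. Of these, the decrease in trex5008 was called: the authors' deposited table gives -0.37 on the log2 scale (approximate SE 0.14, adjusted p 0.0204). In trex8168 the deposited value was 1.45 (approximate SE 0.13) in the authors' deposited table.

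KCNA5 (XLOC_012732, chromosome 12, 5153045 to 5155949), the potassium channel, had authors' means of 13.01 in control, 20.1 in trex0108, 25.9 in trex4039, 9.15 in trex5008 and 75.2 in trex8168. It varied most outside trex8168, by 2.83-fold between trex5008 and trex4039, at low counts. The rise in trex4039 was called: the authors' deposited table gives 0.35 on the log2 scale (approximate SE 0.16, adjusted p 0.0393). Its trex8168 mean was 2.90 times that of trex4039 and 5.78 times control, against 1.17 on the log2 scale (approximate SE 0.14) in the authors' deposited table.

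S100A4 (XLOC_004976, chromosome 1, 153516073 to 153522564), the calcium-binding protein whose promoter above has TATAAA near the start site, had authors' means of 43.0 in control, 49.4 in trex0108, 48.3 in trex4039, 39.5 in trex5008 and 129.9 in trex8168. Apart from trex8168, which lay 2.63-fold above trex0108, the groups differed by at most 1.25-fold. In the authors' deposited table its log2 fold change was 1.10 (approximate SE 0.14) in trex8168, and no other comparison was called (adjusted p 0.649 to 0.999).

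PAMR1 (XLOC_011394, chromosome 11, 35449269 to 35641964), the CUB and sushi domain protein, had authors' means of 116 in control, 145 in trex0108, 119.9 in trex4039, 108 in trex5008 and 245 in trex8168. Here the groups other than trex8168 spanned 1.34-fold, with trex0108 at their top, and trex8168 was 1.69-fold above trex0108. In the authors' deposited table its log2 fold change was 0.89 (approximate SE 0.11) in trex8168 and 0.26 in trex0108, the latter not called (adjusted p 0.447).

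FAM131B (XLOC_060822, chromosome 7, 143030373 to 143080113) departs from the other 8: it was called in all 4 comparisons. The authors' means were 319 in control, 605 in trex0108, 416 in trex4039, 261 in trex5008 and 613 in trex8168. Its trex8168 mean was 1.01 times that of trex0108, so these groups had nearly the same mean. In the authors' deposited table it rose by 0.83 on the log2 scale in trex0108 (approximate SE 0.09, adjusted p 2.36e-19), beside 0.85 (approximate SE 0.09) in trex8168. It also rose in trex4039, by 0.34 (adjusted p 6.91e-04), and fell in trex5008, to -0.25 (adjusted p 0.0246), as the authors' deposited table lists them. The comparisons share the control libraries, and a difference between target groups was not tested for any of the 9 genes.

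CSDC2 (XLOC_041220, chromosome 22, 41956762 to 41980208), the cold shock domain protein, had authors' means of 426 in control, 395 in trex0108, 443 in trex4039, 366 in trex5008 and 791 in trex8168. The trex8168 mean was 1.79 times that of trex4039, while the other groups lay within 1.21-fold of each other. Its deposited log2 fold changes were 0.80 (approximate SE 0.09) in trex8168 and -0.19 in trex5008, the latter not called (adjusted p 0.111 in the authors' deposited table).

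**Figure D2:**
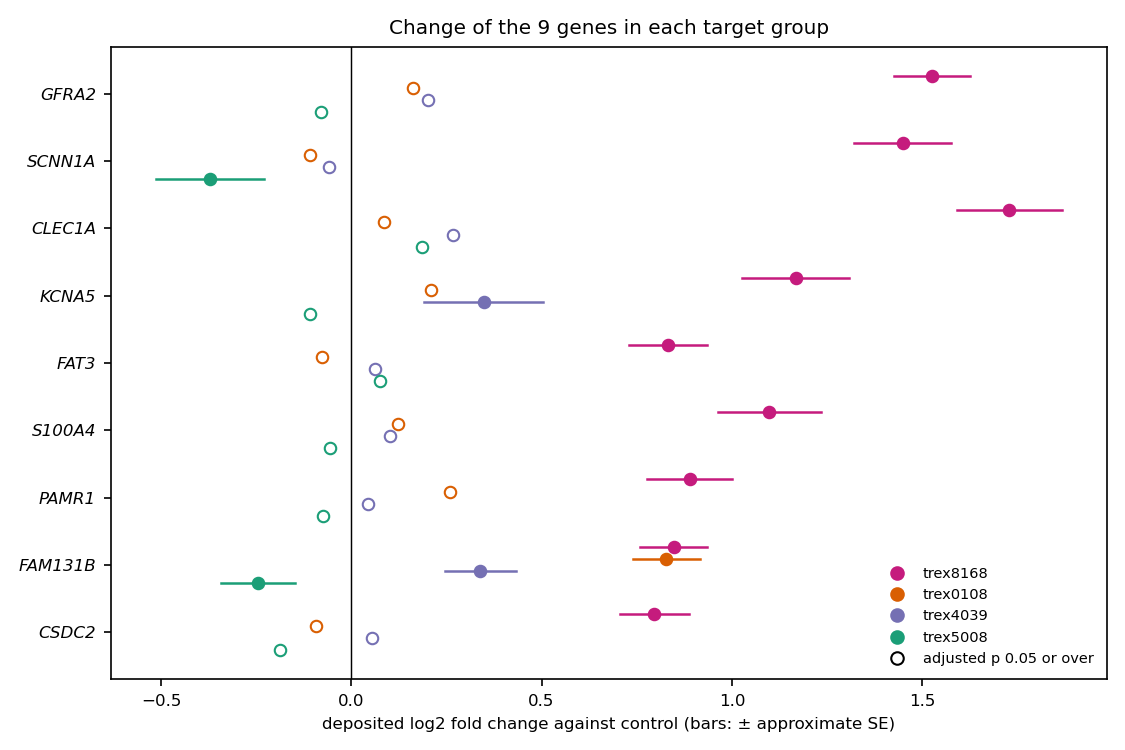
Deposited log2 fold change against control (horizontal axis) of the 9 genes in the 4 comparisons, with bars of 1 approximate SE where an adjusted p under 0.1 allowed one. Filled points passed an adjusted p under 0.05: outside trex8168 these are FAM131B in all 3 comparisons, KCNA5 in trex4039 and SCNN1A in trex5008.

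Across the 3 comparisons that did not choose the genes there are 27 values, of which 5 were called, 3 higher and 2 lower, and 6 of the 9 genes were called in none. In trex0108, 1 of 9 was called, where 5.89% of rows with an adjusted p were called. In trex4039 it was 2 of 9, both higher, where 70.7% of rows were called, and in trex5008 it was 2 of 9, both lower, where 54.1% were. By direction, these shares were 5.65% higher and 0.249% lower in trex0108, 37.1% and 33.7% in trex4039, and 29.8% and 24.3% in trex5008. Rows entered the table by passing in some comparison, which the 9 do through trex8168, so the difference from these shares was not tested. Their median log2 fold change was 0.12 in trex0108, 0.10 in trex4039 and -0.08 in trex5008 in the authors' deposited table, beside 0.02, 0.03 and 0.02 for all listed rows. By sign, 6 of 9 lay above 0 in trex0108, 8 in trex4039 and 2 in trex5008. Transcript GC content had a median of 55.2% over the 9 and 47.6% over the rows with a value. With the trend of fold change on transcript GC content removed, the trex5008 median turned positive, at 0.06, and the trex4039 median went to 0.27. In 7 of the 9 the lowest group mean was that of trex5008, including FAM131B and SCNN1A, whose decreases there passed the test. The others of these 7 were not called in trex5008. The counts by sign and by lowest group were not set beside the same shares over all rows, so nothing is read from them.

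How far the genes lead depends on the scale. By deposited fold change the next protein-coding rows after CSDC2 at 0.80 were SV2C, a synaptic vesicle protein, at 0.77, LTBR, the lymphotoxin beta receptor, at 0.77 and HES7, a transcriptional repressor, at 0.74, while FAT3 at 0.83, FAM131B at 0.85 and PAMR1 at 0.89 lay just above CSDC2 in the authors' deposited table. No gap separates the 9 from these. By the ratio of means, CLEC1A, KCNA5, SCNN1A, GFRA2 and S100A4 held ranks 1 to 5. NPY2R, TNNI1, SV2C, LCN2 and STAB1 then came before PAMR1 at rank 11, and FAT3, FAM131B and CSDC2 were at 17, 19 and 21. The difference between the scales was largest where counts were low: the log2 ratio exceeded the deposited value by 2.44 for CLEC1A and 1.36 for KCNA5, but by 0.10 for CSDC2 and 0.09 for FAM131B.

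**Figure D3:**
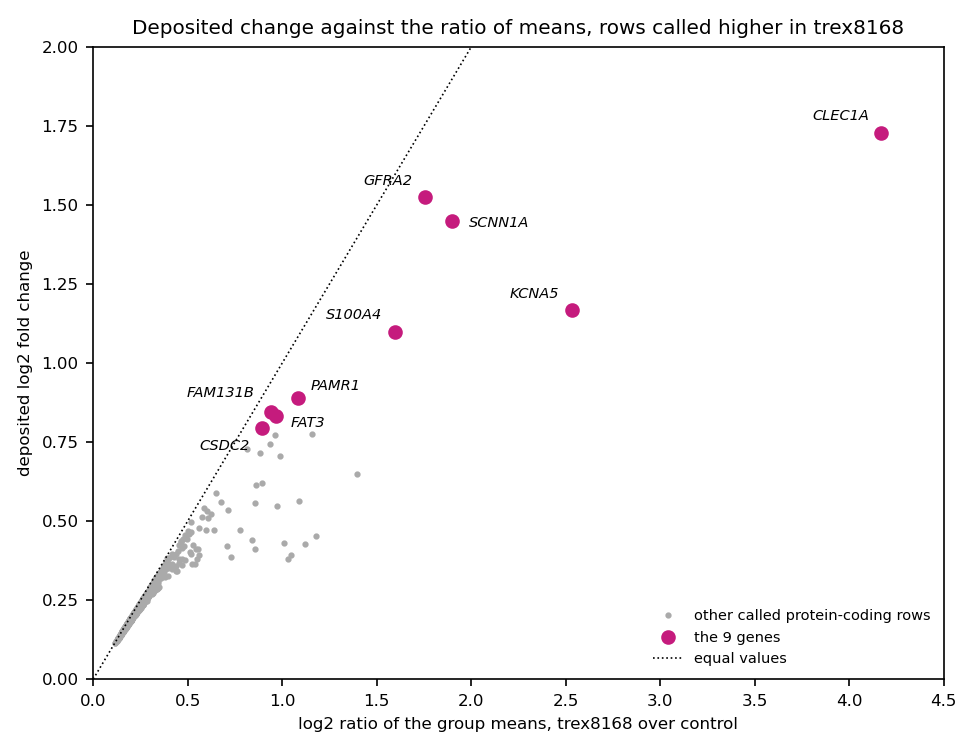
Deposited log2 fold change (vertical axis) against the log2 ratio of group means (horizontal axis) for protein-coding rows called higher in trex8168, with the 9 genes labelled and equal values dotted. CLEC1A lies farthest from the line (1.73 against 4.17), followed by KCNA5, while CSDC2, FAM131B and FAT3 run into the other rows.

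The row with the highest deposited fold change in trex8168 was the lincRNA AC116609.2 on chromosome 2, with authors' means of 163 in control and 3908 in trex8168. None of the 9 genes lies on chromosome 2. AC116609.2 also rose in trex4039, to 331, or 0.89 on the log2 scale (adjusted p 5.06e-20 in the authors' deposited table). Of the 9, KCNA5 and FAM131B were higher in trex4039 as well, where 37.1% of all rows were called higher. In trex0108, where FAM131B rose by 0.83, AC116609.2 stood at -0.09 in the authors' deposited table. A link between AC116609.2 and the 9 genes was not tested. Of the rows at or above CSDC2 in deposited fold change and called, 15 in all, 9 are protein-coding and 6 are not.

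Kin and partners of the 9 were also looked up among the listed rows. In 9 lists of relatives, ligands, subunits and regulators, 54 other rows (53 symbols of the 206 genes named) were listed, and of the 52 with an adjusted p in trex8168, 5 were higher and 2 lower. These shares, 9.62% and 3.85%, lie below the 14.6% and 6.45% of all rows, but they rest on few rows and the difference was not tested. The median log2 fold change was -0.02 in the authors' deposited table, beside 0.04 for all. In trex0108, trex4039 and trex5008, 7.41%, 70.4% and 61.5% of these kin rows were called, beside 5.89%, 70.7% and 54.1% of all. For the GDNF family, 4 other symbols in 5 rows were listed, with 0 called in trex8168: GDNF and NRTN, the ligand that GFRA2 binds, stood at -0.12 and -0.06, ARTN at -0.01 and SDC3 at -0.05 in the authors' deposited table. A second row of NRTN, at -0.12, had no adjusted p. RET, the signalling partner of GFRA2, is not among the listed rows and was not analysed here.

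For the sodium channel, 1 of 9 other listed rows was higher and 0 lower in trex8168. The riser was NR3C2, the mineralocorticoid receptor through which aldosterone raises channel genes, from 627 to 774, or 0.29 on the log2 scale (adjusted p 0.00105 in the authors' deposited table). NR3C2 was also higher in trex4039 and trex5008, with 0.33 and 0.26, where SCNN1A stood at -0.06 and -0.37, in the authors' deposited table. SCNN1D, a further subunit, stood at -0.10 and the kinase gene SGK1 and the ubiquitin ligase gene NEDD4L, which act on the channel's surface amount, at 0.10 and 0.14 in trex8168, none of them called (adjusted p 0.340, 0.522 and 0.0863 in the authors' deposited table). Of 15 other listed voltage-gated potassium channel rows, 0 were higher in trex8168. KCNA1, a close relative of KCNA5, stood at 0.05 in trex8168 but rose in trex4039 and trex5008 with 0.51 and 0.63, and KCNA2 rose in trex0108 with 0.69, in the authors' deposited table. Of the 15 rows, 2 were higher and 6 lower in trex4039, and 1 higher and 9 lower in trex5008, with a median of -0.24 in each. In trex0108, 2 were higher and 0 lower.

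In the S100 list 1 of 5 other listed rows was higher in trex8168, ANXA2, a partner of S100 proteins, with 0.22 in the authors' deposited table. S100A1 and S100A3 stood at -0.24 and -0.08 and were not called. For PAMR1's domain kin, 1 of 8 other rows was higher (NETO2 at 0.16) and 1 lower (SEZ6, a neuronal protein, from 44.6 to 21.7 with -0.50) in the authors' deposited table. Among cold shock domain genes, 2 of 4 were higher, the broadly expressed YBX1 and YBX3 with 0.17 and 0.19 in the authors' deposited table, changes well under the 0.80 of CSDC2. In the FAT3, CLEC1A and FAM131B lists 0 of 5, 0 of 2 and 0 of 1 other rows were called in trex8168.

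**Figure D4:**
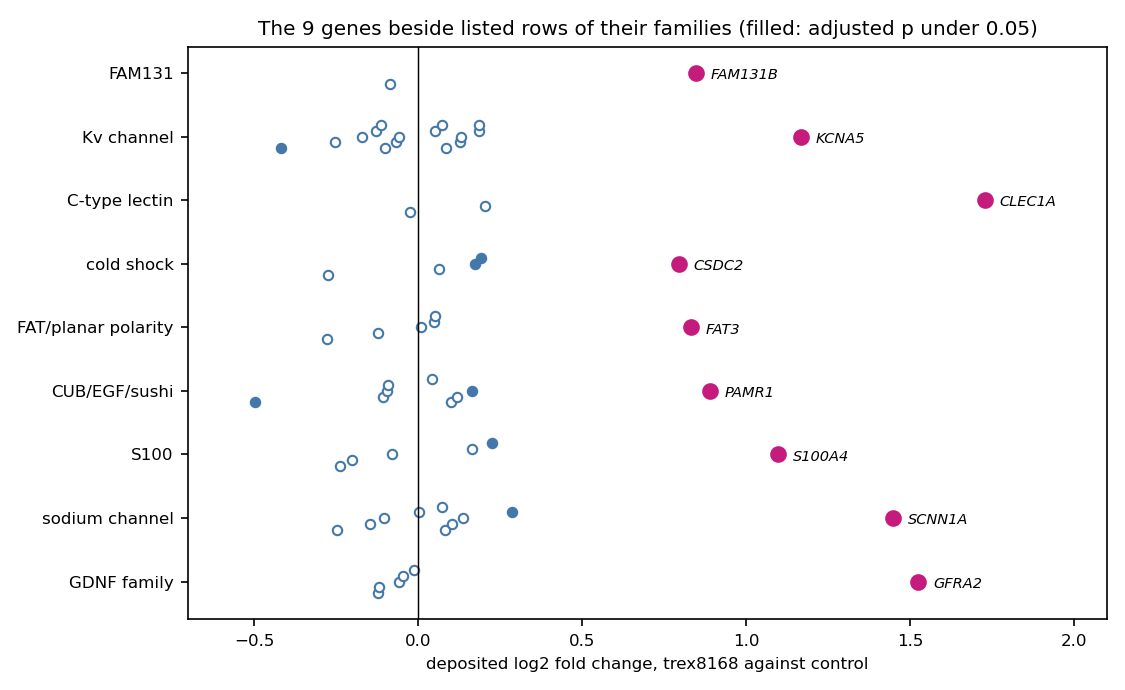
Deposited log2 fold change in trex8168 (horizontal axis) of the 9 genes and of other listed rows in their 9 lists (vertical axis), filled where an adjusted p under 0.05 was reached. Every one of the 9 lies at 0.80 or above, and the other rows lie between -0.50 and 0.29.

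Position on the chromosomes was not used to choose the genes. KCNA5, SCNN1A and CLEC1A lie within 5.11 Mb of chromosome 12 (5153045 to 10264452), a chromosome that holds 5.06% of listed rows. Of 35 other rows with an adjusted p in this stretch, 5 were higher and 3 lower in trex8168, and the 14.3% higher is near the 14.6% over all rows. Within 500 kb of the 9 genes, 68 other rows were listed, and of the 65 with an adjusted p in trex8168, 14 were higher (21.5%) and 5 lower, against 14.6% and 6.45% of all rows. Within 100 kb it was 7 higher and 0 lower of 17. Of these 7, 4 lie near CSDC2 and 2 near SCNN1A.

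Of the called neighbours, LTBR had the highest deposited log2 fold change. Its locus overlaps that of SCNN1A by 3333 bp, and it went from a mean of 106 in control to 206 in trex8168, or 0.77 on the log2 scale (adjusted p 7.05e-09 in the authors' deposited table). LTBR also rose in trex4039, by 0.34 (adjusted p 0.0134), where SCNN1A stood at -0.06, per the authors' deposited table. The library kit marks strand, but whether the counting used it is not given here, so reads of overlapping loci may not be fully told apart. TNFRSF1A, on the other side of SCNN1A and ending before it, stood at 0.15 and was not called (adjusted p 0.0785 in the authors' deposited table). The tetraspanin gene CD9, MRPL51, COPS7A and XLOC_012765 near SCNN1A were higher by 0.19 to 0.23, and IFFO1 was lower at -0.24, in the authors' deposited table.

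Around CSDC2, the unannotated CATG00000058719.1, which overlaps it by 180 bp, rose from 36.9 to 62.1, or 0.44 on the log2 scale (adjusted p 0.0212 in the authors' deposited table). DESI1, XRCC6 (a DNA end-joining protein) and PHF5A (a splicing factor) rose by 0.16, 0.19 and 0.18, whereas the transcription factor gene TEF fell to -0.56 and XLOC_041852 to -0.25, in the authors' deposited table. Near S100A4, RAB13, JTB and CHTOP rose with 0.34, 0.18 and 0.17, and CATG00000019302.1 fell to -0.39, in the authors' deposited table. S100A3, which overlaps S100A4 by 2097 bp, did not follow it: its log2 fold change was -0.08 in trex8168 and 0.66 in trex0108, where it rose (adjusted p 1.42e-04) and S100A4 stood at 0.12, in the authors' deposited table.

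Around the other genes the called neighbours had small values. XLOC_061283 was higher with 0.18 and XLOC_061287 lower at -0.18 near GFRA2, and XLOC_012727 was higher with 0.20 near KCNA5, in the authors' deposited table. The rows overlapping PAMR1 (XLOC_009748) and FAM131B (XLOC_059090) stood at 0.08 and -0.05, and TRIM44 and GSTK1, next to these, at 0.07 and 0.15, with none of them called in the authors' deposited table. The single row near CLEC1A, XLOC_014720, stood at -0.32 and was not called (adjusted p 0.093 in the authors' deposited table), and 0 rows were listed within 500 kb of FAT3.

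**Figure D5:**
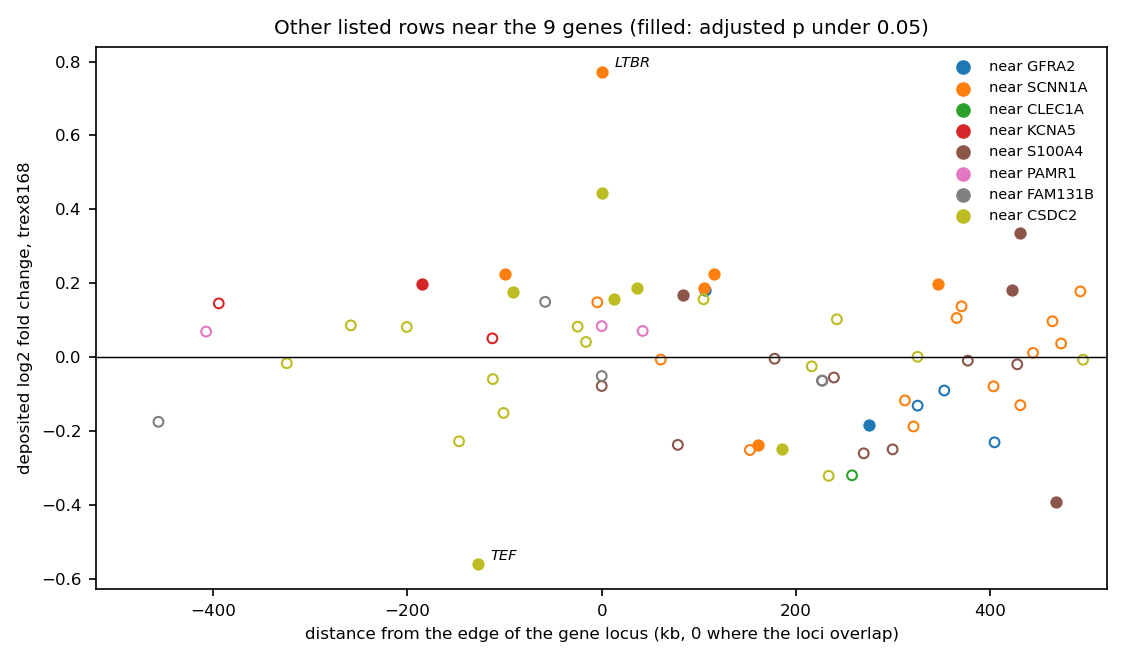
Deposited log2 fold change in trex8168 (vertical axis) of other listed rows within 500 kb of the 9 genes, by distance from the edge of the gene's locus in kb (horizontal axis, 0 for overlapping loci), coloured by gene and filled where an adjusted p under 0.05 was reached. LTBR at 0.77 is the highest and TEF at -0.56 the lowest, with the rest between -0.39 and 0.44.

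Other protein-coding rows came closest to the pattern of the 9 by the Euclidean distance between 4 log2 ratios to control (5 group means, 1 added to each mean). The median profile of the 9 was 1.57 in trex8168, 0.20 in trex0108, 0.16 in trex4039 and -0.12 in trex5008. Nearest to it were LCN2, a secreted iron-siderophore binder, at a distance of 0.67, LTBR at 0.69, the phosphatase gene DUSP13 at 0.70, EMILIN1, an elastic fibre glycoprotein, at 0.72, SV2C at 0.73, the scavenger receptor gene STAB1 at 0.79, the junction adhesion gene CLMP at 0.79 and HES7 at 0.80. S100A4 is the gene at the median itself and GFRA2 lies 0.19 from it, whereas CLEC1A lies 2.70 away. Over the 9 the distances to the median thus ran from 0 to 2.70. Of single genes, CSDC2 had the closest match, DUSP13 at 0.17, followed by PAMR1 with EMILIN1 at 0.27 and FAT3 with CLMP at 0.27. LCN2 was nearest to GFRA2 (0.79) and to S100A4 (0.67), VSTM2B to SCNN1A (0.94), TNNI1 to FAM131B (0.52) and NPY2R to KCNA5 and CLEC1A, at 1.40 and 2.68. EMILIN1 went from 126 in control to 233 in trex8168 with the other target groups between 119.6 and 140.0, and CLMP from 270.1 to 474 with the others between 261 and 314, by the authors' means. LCN2, STAB1, TNNI1 and NPY2R matched at low counts: control means were 15.6, 23.7, 14.7 and 18.8, and trex8168 means 34.0, 50.4, 33.3 and 49.4. Their deposited log2 fold changes in trex8168 were 0.43, 0.56, 0.45 and 0.65 in the authors' deposited table.

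Marker genes of other cell types were thinly listed, and since a row is listed only if it passed in some comparison, a marker that is not listed cannot be read as absent. Of 8 endothelial and myeloid markers, the cells in which CLEC1A is best known, only ITGAM was listed, and it was lower in trex8168, from 98.9 to 61.5, or -0.45 on the log2 scale (adjusted p 0.0138 in the authors' deposited table). Of 9 kidney epithelial markers 4 were listed (PAX2, LHX1, WT1 and KRT8), with summed means from 5086 in trex4039 to 6118 in trex8168. KRT8 made up most of each sum (4002 and 5013), and its own deposited log2 fold change in trex8168, 0.13, was not called. LHX1 was lower in trex8168, at -0.27, while WT1 at -0.18 and PAX2 at 0.02 did not reach an adjusted p under 0.05. The median log2 fold change of the 4 in trex8168 was -0.08. Of 11 neuronal markers 4 were listed (NEFM, INA, SCG3 and NEFH), with summed means from 6170 in trex4039 to 7735 in trex0108. Most of these sums was NEFM (3590 and 5626). SCG3 was higher in trex8168 with 0.29 in the authors' deposited table. Its mean was 257 in control and 325 in trex8168, and higher still in trex0108, trex4039 and trex5008 (333, 356 and 372). NEFM, INA and NEFH stood at 0.03, 0.05 and -0.14 in trex8168 and were not called. Of 6 muscle and heart markers ACTA1 alone was listed, at 149 in control and 122 in trex8168 and not called. The part of any other cell type in the rises was not tested.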

How the data were processed

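PolyA RNA of 15 HEK293FT libraries in 5 groups was measured. The submitters' processing notes name STAR 2.5.1b, Bowtie2 2.2.1, DESeq2 1.14.1, DESeq, Cufflinks and bedtools, and the builds GRCh37 and hg19; what each did and the strand setting are not given in the sources used here. Per the file headers, the authors deposited a signal for each group, a base mean read here as the mean normalised count. The log2 fold changes are deposited values too, and for the 9 genes lie closer to 0 than ratios of those means. Deposited p-values are adjusted; the authors' call score equalled an adjusted p under 0.1, with 0 mismatches. The table lists 11230 rows, each with an adjusted p under 0.1 in some comparison. No value per library was used, so depth is unknown.

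The 9 genes, gene lists and tests were chosen with earlier results of these data known. Calls use the authors' adjusted p under 0.05 over all features they tested. Approximate SE came from raw p recovered from adjusted p and rank, with the number of tests set to the rows with an adjusted p; setting it to 69629, the highest locus number, lowers them. A simulation used the deposited trex8168 changes of the 11230 rows and added further rows without change. With the true number of tests, the median ratio of recovered to true SE was 1. With the number of tests set to the rows kept, as here, it was 1.09. The SE and the share of rows kept were set by assumption, so this ratio need not hold for these data. Starts were raised by 1 to count from 1. GC content is that of the longest GENCODE transcript per symbol, found for 88.5% of 7368 named rows and all 9 genes; a lowess trend (fraction 0.3) was removed as an alternative. Genes named are the 9, listed relatives called in trex8168 or direct partners, called rows within 500 kb (otherwise the nearest 2), rows next in rank, and the 8 rows nearest in pattern. The ranking by ratio of means, and relatives named for other comparisons, were chosen after values were seen. A called relative is not reported here. Python 3.11.15, pandas 2.3.3, scipy 1.17.1 and statsmodels 0.14.6 were used.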

Additional observations from a re-analysis of the deposited data

How the results depend on the processing

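With the adjusted p threshold at 0.1 the counts of called genes stayed at 9, 1, 2 and 2 in trex8168, trex0108, trex4039 and trex5008. The trex8168 count could not change with these thresholds. By choice of the genes, the largest adjusted p of the 9 there was 1.26e-12 in the authors' deposited table. At 0.01, 1 of the 9 genes was called in trex4039 and 0 in trex5008, so the decreases of SCNN1A and FAM131B and the rise of KCNA5 rest on the threshold. With a mean of at least 50 over all libraries, 7 were called in trex8168 and 1 in trex4039, since CLEC1A and KCNA5 fall out. The median log2 change of the 9 by ratio of means was 1.57, 0.20, 0.16 and -0.12 in the 4 comparisons with 1 added to each mean and 1.40, 0.16, 0.14 and -0.10 with 10 added. With the median of all rows subtracted it was 1.06, 0.10, 0.070 and -0.10, and with the GC trend removed 1.11, 0.15, 0.27 and 0.060. All 14 called values kept their direction under these 4 settings, 9 of them the trex8168 values by which the genes were chosen. Adding 1 or 10 to both means cannot turn the sign of a ratio of means. The median of all rows was at most 0.04, too small to turn any called value. Only removal of the GC trend could have changed a direction, so nothing is read from the other settings. With the GC trend removed the decreases in trex5008 shrank, to -0.19 for SCNN1A and -0.10 for FAM131B. Of the rows near the genes with an adjusted p in trex8168, 19 of 65 (29.2%) were called within 500 kb. Within 100 kb it was 7 of 17 (41.2%) and within 1000 kb 31 of 113 (27.4%), against 21.0% of all rows. The difference was not tested, and the narrow window rests on few rows. No paired analysis was possible because the result comes from group means, and leaving out a replicate was not run for the same reason. Low counts limit CLEC1A, KCNA5 and S100A4, the 3 genes with a control mean under 50.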
